A study of Danio rerio with 4 samples.

Results

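Hepatic stellate cells and the mural cells of vessels were followed in zebrafish larval liver through 8 genes chosen by name: hand2, wt1b, tcf21, pdgfra, pdgfrb, acta2, tagln and steap4. Each name matched 1 Ensembl identifier among the 32058 rows of the deposited gene table. Livers of AB strain larvae were dissected at 6 dpf (days post-fertilization) under fasting, after 48 h in DMSO, the vehicle, or in lipofermata (5 μM), both from 4 dpf. Lipofermata is a small-molecule inhibitor of the fatty acid transporter Slc27a2a. There were 2 poly(A) RNA libraries per treatment, each from the pooled livers of 30 larvae, so a library averages over larvae and over every cell type of the dissected organ. No label says whether the replicates came from separate clutches, so p-values measure the spread between these libraries, which may be technical.

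Stellate cells lie between hepatocytes and the sinusoidal endothelium, store vitamin A when quiescent, and in injured liver turn into matrix-producing, contractile cells. Mural cells are the pericytes and smooth muscle cells that wrap vessels, and they are recruited by platelet-derived growth factor (PDGF) from the endothelium. The 8 genes sit at different levels of this biology. hand2, wt1b and tcf21 encode transcription factors of mesenchyme, pdgfra and pdgfrb encode the PDGF receptors, acta2 and tagln encode contractile proteins, and steap4 encodes a metalloreductase. None of them is restricted to the liver. hand2 also acts in heart and sympathetic neurons, wt1b in mesothelium and kidney podocytes, tcf21 in epicardium, and acta2 and tagln in the smooth muscle of gut and swim bladder.

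Lipofermata was accompanied by lower RNA of 6 of the 8 genes. All 3 transcription factors, both PDGF receptors and steap4 fell, by 1.78-fold to 3.19-fold, whereas acta2 and tagln did not pass the test, and their lipofermata libraries lay 4.87-fold and 5.06-fold apart. The test was edgeR's quasi-likelihood F test with Benjamini-Hochberg adjustment across the 14925 genes tested, and a gene was called at an adjusted p under 0.1. All 8 genes passed the filter on low counts. Of all genes tested, 16.9% were called lower, 16.6% higher and 33.5% in either direction. The median log2 fold change was -0.90 over the 8 genes and -0.025 over all genes tested. In RNA of a whole dissected organ, fewer stellate or mural cells and less RNA per cell cannot be told apart.

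Total counts per library ran from 14997821 to 19368695. Hepatocyte markers were abundant in every library, as the liver label requires, and summed to 138004 and 169532 normalized counts (CPM, scaled to library size) with DMSO and to 98532 and 102453 CPM with lipofermata, fabp10a, the liver fatty acid binding protein, alone having 122497 to 150064 counts. Scaling to total counts in place of edgeR's TMM factors (trimmed mean of M-values) shifted the median log2 fold change of all genes by 0.39. It moved the share of calls that were higher from 49.5% to 81.2%, and left 3 of the 8 genes called lower. Levels below are TMM-normalized CPM, which are not divided by transcript length, so levels of different genes are not ranked against each other.

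**Figure D1:**
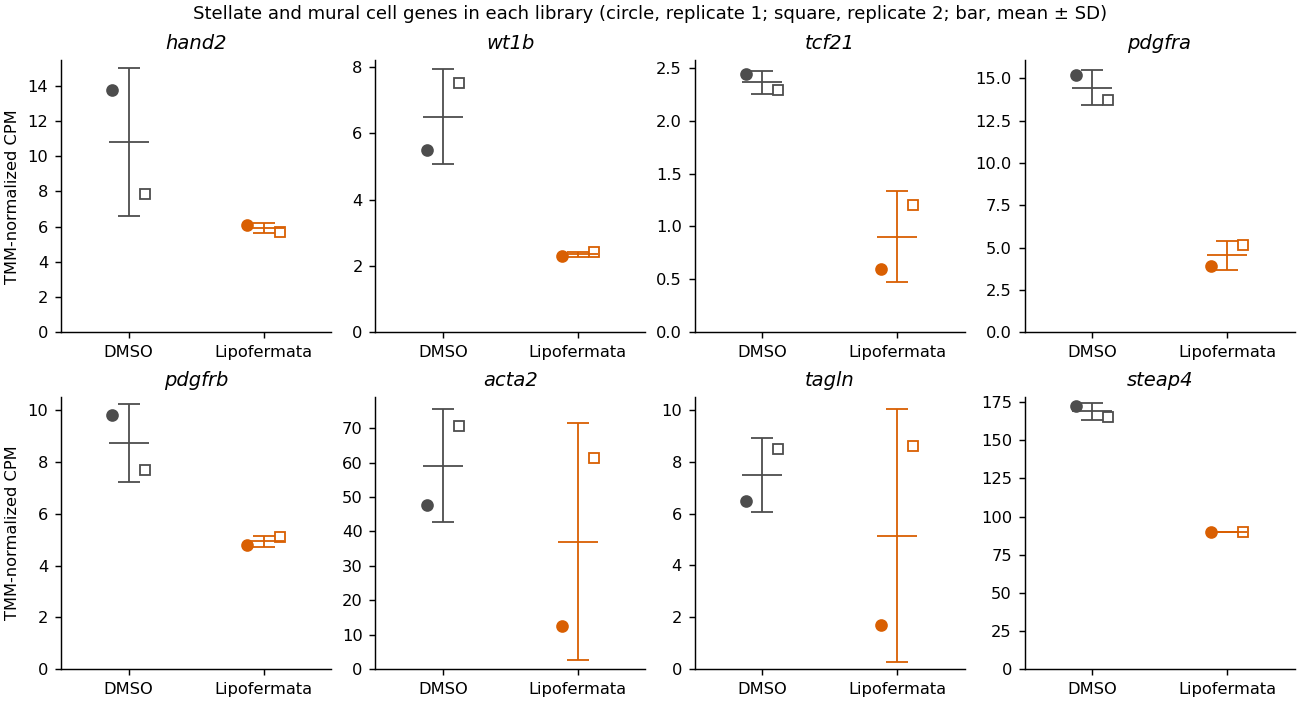
TMM-normalized CPM (y axis, linear, from 0) of the 8 genes in the DMSO and lipofermata libraries. Circles are replicate 1, squares replicate 2, and bars the mean ± SD of 2 libraries. The groups are apart for hand2, wt1b, tcf21, pdgfra, pdgfrb and steap4, and overlap for acta2 and tagln, where lipofermata replicate 1 lies far below the other 3 libraries.

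The transcription factors are taken first. hand2 (ENSDARG00000008305), a basic helix-loop-helix factor used in zebrafish to mark stellate cells, measured 13.7 and 7.84 CPM with DMSO and 6.10 and 5.70 CPM with lipofermata. The mean went from 10.8 ± 4.18 CPM to 5.90 ± 0.283 CPM (SD, n = 2 each), a log2 fold change of -0.88 ± 0.28 (SE), with an edgeR adjusted p of 0.0425. The groups did not overlap, but DMSO replicate 1 stood 1.75-fold above DMSO replicate 2, and the size of the difference depended on it. Without DMSO replicate 1 the log2 fold change was -0.40 and the edgeR adjusted p was 0.334, and the call was also lost without lipofermata replicate 1 (0.121) or replicate 2 (0.160).

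DMSO replicate 1 also held more heart muscle RNA than the other libraries. Among heart muscle markers other than hand2, all 4 that passed the filter on low counts were lower with lipofermata, and the 12 found summed to 105 and 40.7 CPM with DMSO against 19.8 and 20.8 CPM with lipofermata. gata4, which liver mesenchyme also uses, was 1 of the 4, and without it the sums were 74.6 and 5.47 CPM against 3.35 and 4.82 CPM, so the other heart markers were high in DMSO replicate 1 and low in the rest. myl7, the atrial and ventricular myosin light chain, had 160 counts in DMSO replicate 1 and 10 in each other library, and its call was lost without DMSO replicate 1. nppa, the natriuretic peptide of the heart, had 176 counts there, 0 in DMSO replicate 2, 0 in lipofermata replicate 1 and 2 in lipofermata replicate 2. Heart markers and hand2 were both highest in DMSO replicate 1, and the part of heart in the hand2 difference was not tested. Sympathetic and enteric neuron markers were sparse, with th, dbh and phox2ba at 0 counts in all 4 libraries. With counts taken as separate reads, this allows up to 3 counts or 0.150 to 0.245 CPM in a library. The bound would be higher if both mates of a pair were counted. The 13 neuron markers found summed to at most 4.99 CPM with DMSO and 2.96 CPM with lipofermata. Of the 3 of them tested, elavl4, a neuronal RNA-binding protein, was called lower, with 12 and 20 counts against 0 and 2 (edgeR adjusted p 0.0183). That call was lost without lipofermata replicate 1. The other tested markers were not called, ret having 16 and 8 counts against 30 and 26, and snap25a 42 and 2 against 4 and 14.

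wt1b (ENSDARG00000007990), a Wilms tumour factor whose mouse counterpart marks the mesothelium from which stellate cells arise, measured 5.49 and 7.51 CPM with DMSO and 2.30 and 2.41 CPM with lipofermata. It fell by 1.45 on the log2 scale (SE 0.32, edgeR adjusted p 0.00825), or 2.74-fold, from 6.50 ± 1.43 CPM to 2.35 ± 0.0789 CPM (SD, n = 2 each). Both lipofermata libraries lay below both DMSO libraries, and the call held in each of the 13 alternative analyses. Its paralog wt1a was lower too, with 45 and 44 counts against 16 and 18 and a log2 fold change of -1.75 ± 0.48 (SE, edgeR adjusted p 0.0235). The call of wt1a was lost without lipofermata replicate 1.

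Other tissues that use wt1b were looked at through their own genes. Of 4 tested kidney podocyte markers other than wt1b, 3 were lower (median -1.54), and the list summed to 183 and 185 CPM with DMSO and to 65.9 and 61.0 CPM with lipofermata. Most of that sum was podxl, at 155 ± 5.82 CPM with DMSO and 51.3 ± 5.43 CPM with lipofermata (SD, n = 2 each). Called were wt1a, podxl and mafba, a transcription factor of podocytes and macrophages (-1.23 ± 0.22, SE, edgeR adjusted p 0.00292), all also made outside the kidney, while nphs1, which encodes nephrin of the kidney filter, had at most 2 counts in any library. Mesothelial and epicardial markers other than wt1b and tcf21 were lower in 6 of the 8 that passed the filter, and the 11 found summed to 601 and 677 CPM with DMSO and to 161 and 175 CPM with lipofermata. Among them were podxl, a sialomucin of mesothelium, endothelium and podocytes (-1.59 ± 0.15), bnc2, a zinc finger factor (-1.39 ± 0.30), and the keratins krt94 (-2.47 ± 0.16) and krt4 (-1.96 ± 0.19). krt4, also an epidermis gene, carried 296 and 355 CPM of the sum with DMSO and 70.7 and 97.2 CPM with lipofermata, and the other 10 genes summed to 305 and 321 CPM against 90.6 and 78.2 CPM. Most of what remained was krt94 and podxl, the latter counted in the podocyte sum too. krt94 was at 137 ± 1.24 CPM with DMSO and 24.8 ± 3.38 CPM with lipofermata (SD, n = 2 each). Epidermis was not named above as using wt1b but shares krt4 with the mesothelial list. Its markers were more often lower than higher, with 6 of 10 tested lower, 1 higher and 3 not called (median -1.41). Their sums were 925 and 1235 CPM with DMSO against 299 and 344 CPM with lipofermata. The parts of kidney, mesothelium and skin in the wt1b difference were not tested.

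tcf21 (ENSDARG00000036869), a helix-loop-helix factor that in mouse is characteristic of quiescent stellate cells, was the sparsest of the 8, with 44, 28, 12 and 22 counts in DMSO replicates 1 and 2 and lipofermata replicates 1 and 2. These are 2.44, 2.29, 0.600 and 1.21 CPM, so the groups did not overlap but the lipofermata libraries differed 2.01-fold. The log2 fold change was -1.39 ± 0.53 (SE) with an edgeR adjusted p of 0.0813, close to the threshold. The call was lost without DMSO replicate 1 (0.149), without lipofermata replicate 1 (-0.97 on the log2 scale, 0.431) or without lipofermata replicate 2 (0.111).

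**Figure D2:**
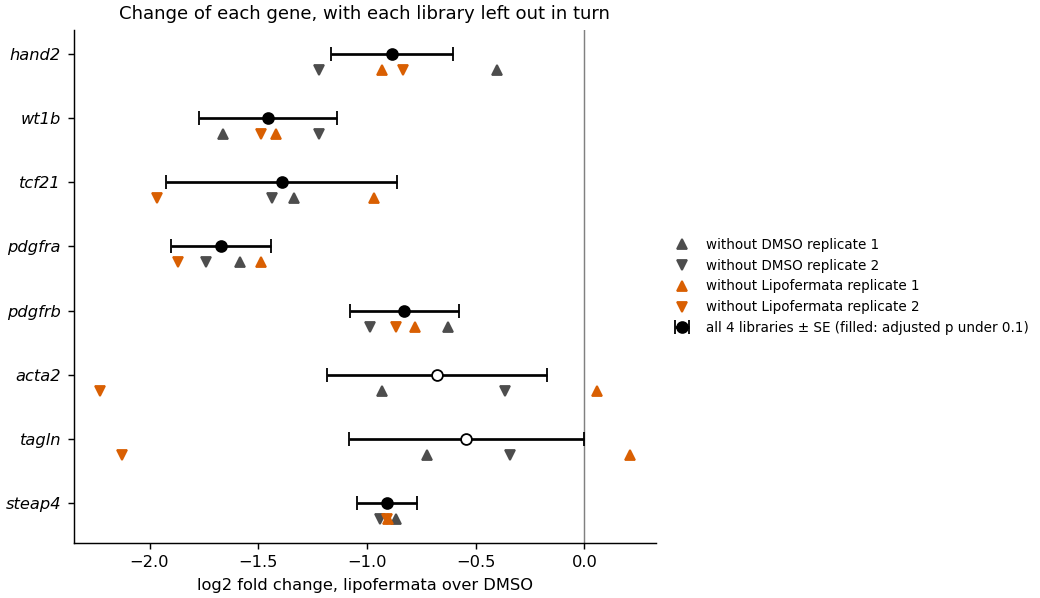
Log2 fold change of each gene, lipofermata over DMSO (x axis). Circles with bars are the fit to all 4 libraries ± SE, filled where the adjusted p was under 0.1, and triangles are fits with 1 library left out. The triangles stay near -0.91 for steap4 (-0.94 to -0.87) and spread from -2.23 to 0.058 for acta2.

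Both PDGF receptors fell, pdgfra by more. pdgfra (ENSDARG00000070494), a receptor for PDGF-A and PDGF-C, measured 15.2 and 13.7 CPM with DMSO and 3.95 and 5.15 CPM with lipofermata. The mean went from 14.5 ± 1.04 CPM to 4.55 ± 0.849 CPM (SD, n = 2 each), 3.19-fold lower, a log2 fold change of -1.67 ± 0.23 (SE) with an edgeR adjusted p of 7.7e-04. This was the largest fitted change among the 8 genes, 4.22% of all genes tested having a lower log2 fold change, and the call held in all 13 alternatives.

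pdgfrb (ENSDARG00000100897), the receptor through which PDGF-B recruits pericytes, measured 9.81 and 7.68 CPM with DMSO and 4.80 and 5.09 CPM with lipofermata. Its log2 fold change was -0.83 ± 0.25 (SE) and its edgeR adjusted p was 0.0354, with the groups apart by less than for pdgfra. The call was lost without DMSO replicate 1 (0.123), without lipofermata replicate 1 (0.183) or without lipofermata replicate 2 (0.129). The ratio of pdgfra to pdgfrb counts, taken within a library and so free of scaling, was 1.55 and 1.79 with DMSO and 0.823 and 1.01 with lipofermata. The ratio was 0.548 times as high with lipofermata, with both lipofermata libraries below both DMSO libraries. An exact two-sided permutation test gave p = 0.333, the smallest that 2 libraries against 2 allow. The ratios of hand2 to pdgfrb and of wt1b to tcf21 overlapped between the groups (exact permutation p = 1 for each). Including that of acta2 to tagln, 4 ratios were examined, and after Benjamini-Hochberg adjustment over them every exact p was 1.

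The ligands of these receptors were present at low levels. Of 6 PDGF ligand genes, 5 passed the filter, 1 was lower and 4 were not called, with a median log2 fold change of 0.37. pdgfbb, encoding a PDGF-B chain, had 46 and 40 counts with DMSO and 2 and 2 with lipofermata, which are 2.55 and 3.27 CPM against 0.0999 and 0.110 CPM. Its fitted log2 fold change was -4.70 ± 0.68 (SE, edgeR adjusted p 0.00103), called in all 13 alternatives but resting on 4 counts with lipofermata. Of the other ligand genes, pdgfab and pdgfc were not called. pdgfab measured 4.16 and 5.55 CPM against 7.05 and 6.57 CPM (edgeR adjusted p 0.208), and pdgfc 1.72 and 3.92 CPM against 3.55 and 4.16 CPM (0.436). kita, a receptor tyrosine kinase of the same class as the PDGF receptors, fell from 11.6 ± 0.402 CPM to 5.49 ± 0.763 CPM (SD, n = 2 each), a log2 fold change of -1.09 ± 0.23 (SE, edgeR adjusted p 0.00646). Another relative, csf1ra, was not called, at 8.45 ± 8.36 CPM with DMSO and 6.02 ± 1.79 CPM with lipofermata (SD, n = 2 each, edgeR adjusted p 0.528). kitb and csf1rb did not pass the filter.

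The contractile genes split the lipofermata libraries. acta2 (ENSDARG00000045180), smooth muscle alpha-actin, measured 47.6 and 70.7 CPM with DMSO but 12.6 and 61.4 CPM with lipofermata. tagln (ENSDARG00000045408), the actin-binding protein transgelin, measured 6.49 and 8.49 CPM with DMSO and 1.70 and 8.60 CPM with lipofermata. For both, lipofermata replicate 1 was the lowest of the 4 libraries, while lipofermata replicate 2 lay within the DMSO range for acta2 and just above it for tagln. The log2 fold changes were -0.68 ± 0.51 (SE, edgeR adjusted p 0.361) for acta2 and -0.54 ± 0.54 (0.503) for tagln, neither of them called. With no filter on low counts, acta2 was called at -0.66 (edgeR adjusted p 9.2e-04). The SE of that fit was 0.17, against 0.51 with the filter, for the same libraries. It does not reflect the gap between 12.6 and 61.4 CPM.

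The sign itself depended on lipofermata replicate 1. Without it the log2 fold changes were 0.058 for acta2 and 0.21 for tagln, neither called. Without lipofermata replicate 2 they were -2.23 and -2.13, both called. acta2 was called without DMSO replicate 1 (-0.93) or DMSO replicate 2 (-0.37) as well, and tagln without DMSO replicate 1 (-0.72). In such fits 1 arm has a single library, assumed to vary like the other, and the spread is shared across genes. The SE of acta2 without DMSO replicate 1 was 0.15 despite the 4.87-fold gap between its lipofermata libraries, so it does not reflect that gap. Across these left-out fits the 8 genes yielded 3 calls without lipofermata replicate 1, 5 without lipofermata replicate 2, 5 without DMSO replicate 1 and 7 without DMSO replicate 2, each of them lower.

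acta2 and tagln moved together. There were 7.33 and 8.33 acta2 counts per tagln count with DMSO and 7.41 and 7.13 with lipofermata. The 95% exact counting intervals of the 4 libraries overlapped, the widest being 4.45 to 13.1 in lipofermata replicate 1. An exact two-sided permutation test gave p = 0.667. That test cannot go below 0.333 with 2 libraries against 2, so it could not have shown a difference in the ratio. A gap of this size with lipofermata replicate 2 above replicate 1 was rare. Among 13184 tested genes with at least 40 counts in these 2 libraries, 7 had such a gap at or above that of acta2. These include acta2, tagln and cnn1a. The gap of tagln was reached by 5, itself included. Gaps in the opposite direction were not counted. cnn1a, a smooth muscle calponin, was another gene with a wide gap, with 6, 9, 6 and 84 counts in DMSO replicates 1 and 2 and lipofermata replicates 1 and 2. myh11a, smooth muscle myosin heavy chain and a gene of gut smooth muscle too, had 572, 536, 376 and 573 counts. Gut and swim bladder epithelium markers, a list that holds myh11a, summed to 557 and 565 CPM in lipofermata replicates 1 and 2, and to 106 and 113 CPM without apoa4b.1, the apolipoprotein gene that carries most of that sum. As a list of epithelium, it does not measure smooth muscle. The part of smooth muscle from gut or vessels in the gap was not tested.

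**Figure D3:**
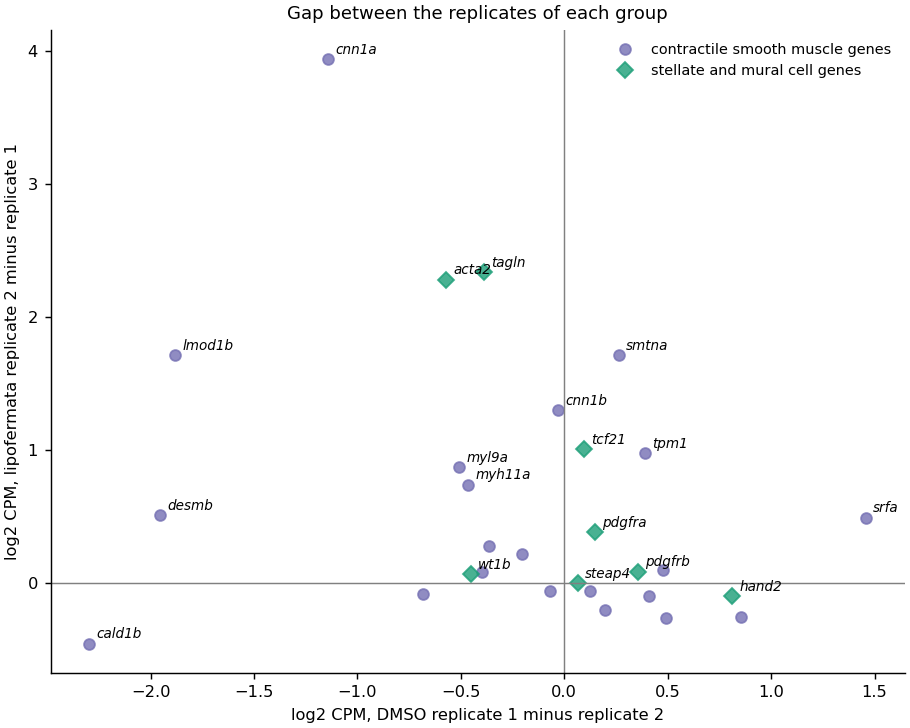
Gap between the replicates of each gene in log2 CPM, DMSO replicate 1 minus 2 (x axis) and lipofermata replicate 2 minus 1 (y axis). Diamonds are the 8 genes and circles the tested contractile smooth muscle genes. acta2 and tagln sit together above 2 on the y axis, and hand2 lies farthest right among the 8.

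Other contractile genes moved in both directions. Of 28 found besides the 8, 21 passed the filter, of which 8 were lower, 5 higher and 8 not called, with a median log2 fold change of -0.39. Lower were myl9a, a regulatory myosin light chain (-1.65 ± 0.32), desmb, a desmin (-2.05 ± 0.59), cald1a, caldesmon (-0.65 ± 0.16), and tpm2, tropomyosin (-0.59 ± 0.15). Higher were its paralog myl9b (0.92 ± 0.14), mylka, the kinase of that light chain (0.92 ± 0.17), flna, filamin A (0.89 ± 0.18), and cnn2, a calponin found outside smooth muscle as well (1.03 ± 0.24). All errors here are SE from the edgeR fit. Which cells made these 4 higher genes was not tested. myh11a was also called lower (-0.59 ± 0.24, edgeR adjusted p 0.0953), a call lost with DESeq2 size factors or with total-count scaling. The call of desmb was lost without DMSO replicate 2 (-0.80, edgeR adjusted p 0.379), that of cald1a without either lipofermata library and that of tpm2 without lipofermata replicate 1, and total-count scaling also ended the latter pair. The 4 higher genes kept their call in all 13 alternatives, whereas without lipofermata replicate 1 the list held 2 lower calls.

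acta2 counts could also be affected by its relatives, since vertebrate actins are nearly identical in coding sequence and reads can be split among them. Of the cytoplasmic actins, actb2 was not called, at 4302 ± 143 CPM with DMSO and 4011 ± 133 CPM with lipofermata (SD, n = 2 each, edgeR adjusted p 0.679). actb1 rose from 628 ± 121 CPM to 896 ± 27.2 CPM (SD, n = 2 each, log2 fold change 0.51 ± 0.17 SE, edgeR adjusted p 0.0504), a call lost without either lipofermata library. tagln2, a transgelin of non-muscle cells, fell by 0.61 on the log2 scale (SE 0.14, edgeR adjusted p 0.0114), a call also lost without either lipofermata library. In lipofermata replicates 1 and 2 actb1 had 17539 and 16702 counts and tagln2 836 and 786. The muscle actins closest to acta2 were sparse there. actc1b had 58 and 14 counts with DMSO and 2 and 8 with lipofermata (log2 fold change -3.03 ± 0.80 SE, edgeR adjusted p 0.0199), a call lost without DMSO replicate 1 or lipofermata replicate 1, and acta1a had 58, 10, 14 and 26. How far reads were shared among actins was not tested.

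steap4 (ENSDARG00000055901) encodes a membrane reductase of iron and copper, which in mammals is made by perivascular cells and also by hepatocytes and fat cells. It had the most counts of the 8 genes, 3117 and 2022 with DMSO and 1801 and 1644 with lipofermata. These are 173 and 165 CPM against 90.0 and 90.1 CPM, the tightest agreement between replicates of all 8. The mean fell from 169 ± 5.44 CPM to 90.0 ± 0.0399 CPM (SD, n = 2 each), 1.88-fold, with a log2 fold change of -0.91 ± 0.14 (SE) and an edgeR adjusted p of 0.00141. No alternative changed the call, and left-out fits gave -0.94 to -0.87. Hepatocyte markers were themselves lower in 10 of 19, with a median log2 fold change of -0.39. hnf4a, the hepatocyte nuclear receptor, was at -1.21 ± 0.18 (SE, edgeR adjusted p 0.00135), and fabp10a at -0.25 ± 0.17 (0.332), so a hepatocyte share of the steap4 signal was not tested.

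Taking the 8 genes as a group, 6 had DMSO and lipofermata libraries that did not overlap, beside 65.2% of all genes tested. Their summed level was 274 and 283 CPM with DMSO and 122 and 180 CPM with lipofermata, the gap between the latter being mostly acta2. Most of each sum was steap4, with 173 and 165 CPM with DMSO and 90.0 and 90.1 CPM with lipofermata.

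Stellate cell genes outside the 8 were examined from lists. Like the 8 genes, all lists here were chosen with earlier results of these data known, so their counts are a description only. Of 27 vitamin A and quiescent stellate genes found, 14 passed the filter, of which 8 were lower, 2 higher and 4 not called (median log2 fold change -0.67). colec11, a collectin of liver mesenchyme, went from 54.5 ± 1.61 CPM to 12.6 ± 1.99 CPM (SD, n = 2 each), a log2 fold change of -2.11 ± 0.16 (SE, edgeR adjusted p 3.3e-05). angptl6 (-1.54 ± 0.17), the hedgehog-binding protein hhip (-1.21 ± 0.14) and the BMP ligand gdf2 (-1.32 ± 0.22) were lower too. Higher were plin2, a coat protein of lipid droplets in many cell types (1.35 ± 0.36), and stra6l, a receptor for retinol-binding protein (0.38 ± 0.14). Some mammalian stellate markers were barely detected, ngfra having 0 counts in all 4 libraries. In DMSO replicates 1 and 2 and lipofermata replicates 1 and 2, gfap had 0, 4, 6 and 2 counts. In that order lrata, which esterifies retinol for storage, had 18, 12, 8 and 4. By contrast cygb1, a cytoglobin of the same list, had 780, 643, 967 and 1066 counts. It was not called (log2 fold change 0.16 ± 0.16 SE, edgeR adjusted p 0.508). Leaving out lipofermata replicate 1 left 4 lower calls in this list, and leaving out replicate 2 left 5. The calls of plin2 and stra6l were lost without lipofermata replicate 1, and that of stra6l also without replicate 2.

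Most matrix genes tested were lower. Of 32 genes of activated stellate cells and fibroblasts found, 27 were tested, of which 20 were lower, 1 higher and 6 not called, with a median log2 fold change of -1.26. loxl1, which cross-links elastin, had 924 and 495 counts with DMSO and 32 and 22 with lipofermata, a log2 fold change of -5.02 ± 0.23 (SE, edgeR adjusted p 2.0e-06). The collagens col1a1b (-2.28 ± 0.26) and col5a1 (-1.76 ± 0.19) and pcolcea, which speeds procollagen processing (-1.26 ± 0.14), were lower as well. timp2b, an inhibitor of metalloproteinases, was higher (0.78 ± 0.30, edgeR adjusted p 0.0825), a call lost without DMSO replicate 2 or either lipofermata library. col6a1 had the highest level among those not called, at 151 and 222 CPM with DMSO and 119 and 151 CPM with lipofermata (0.116).

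Mesenchymal transcription factors and pericyte genes outside the 8 were mixed. Of 33 factors found, 19 were tested, of which 8 were lower, 1 higher and 10 not called (median -0.58), and without lipofermata replicate 1 there were 5 lower calls. snai2, a zinc finger factor of mesenchymal transition, had 140 and 42 counts with DMSO and 8 and 4 with lipofermata (log2 fold change -4.15 ± 0.57 SE). zeb2a (-1.40 ± 0.17), gata4 (-1.01 ± 0.16) and gata5 (-1.15 ± 0.19), the latter pair shared by heart and liver mesenchyme, were lower too. Of 23 pericyte and mural genes found, 17 were tested, of which 9 were lower, 1 higher and 7 not called (median -0.68). Among these, itga8, an integrin of mesenchymal cells (-3.20 ± 0.41), mcamb, an adhesion molecule of endothelium and mural cells (-1.88 ± 0.17), and abcc9, a potassium channel subunit of pericytes (-1.04 ± 0.22), were lower. epas1b, a hypoxia-inducible factor expressed in endothelium and pericytes, was at -0.97 ± 0.14. Its paralog epas1a was not called, at 256 ± 22.5 CPM with DMSO and 270 ± 24.6 CPM with lipofermata (SD, n = 2 each, edgeR adjusted p 0.741). foxf2a, a forkhead factor of brain pericytes, was the 1 higher gene of both lists, at 2.55 and 5.39 CPM against 6.70 and 8.22 CPM. Its call (edgeR adjusted p 0.0765) was lost without DMSO replicate 1 or either lipofermata library. notch3, the Notch receptor of mural cells, was not called, at 43.5 and 56.0 CPM against 57.7 and 54.7 CPM (0.445).

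**Figure D4:**
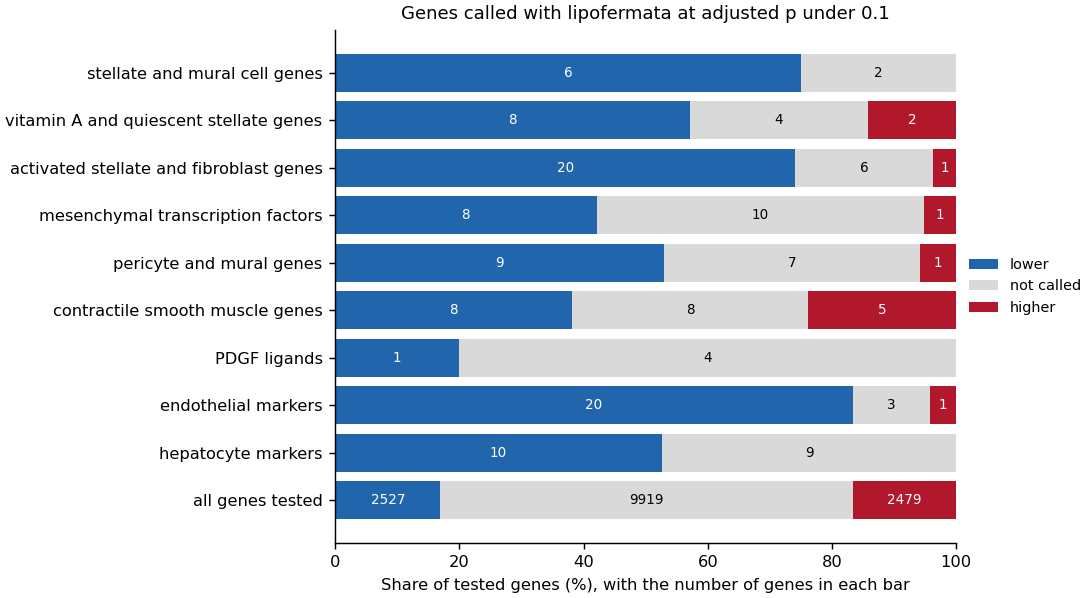
Share of tested genes called lower, higher or not called with lipofermata at an adjusted p under 0.1 (x axis, percent), with the number of genes in each bar. The bar for the 8 genes holds 6 lower calls and the endothelial bar 20 of 24, while all genes tested split nearly evenly at 2527 lower and 2479 higher.

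The endothelium, the neighbour that stellate and mural cells wrap, was lower in 20 of 24 markers, higher in 1 and not called in 3, with a median log2 fold change of -1.69. Its markers summed to 1059 and 939 CPM with DMSO and to 298 and 289 CPM with lipofermata, with no overlap and close replicates. tie1, an endothelial receptor kinase (-2.60 ± 0.17), stab1, a scavenger receptor of sinusoidal endothelium (-2.97 ± 0.21), pecam1 (-2.35 ± 0.19) and plvapb (-1.99 ± 0.16) changed further than any of the 8 genes in the fitted value, without a test of that difference. plvapa, a paralog of plvapb, was the higher gene (1.59 ± 0.50), a call lost without DMSO replicate 1 or either lipofermata library.

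**Figure D5:**
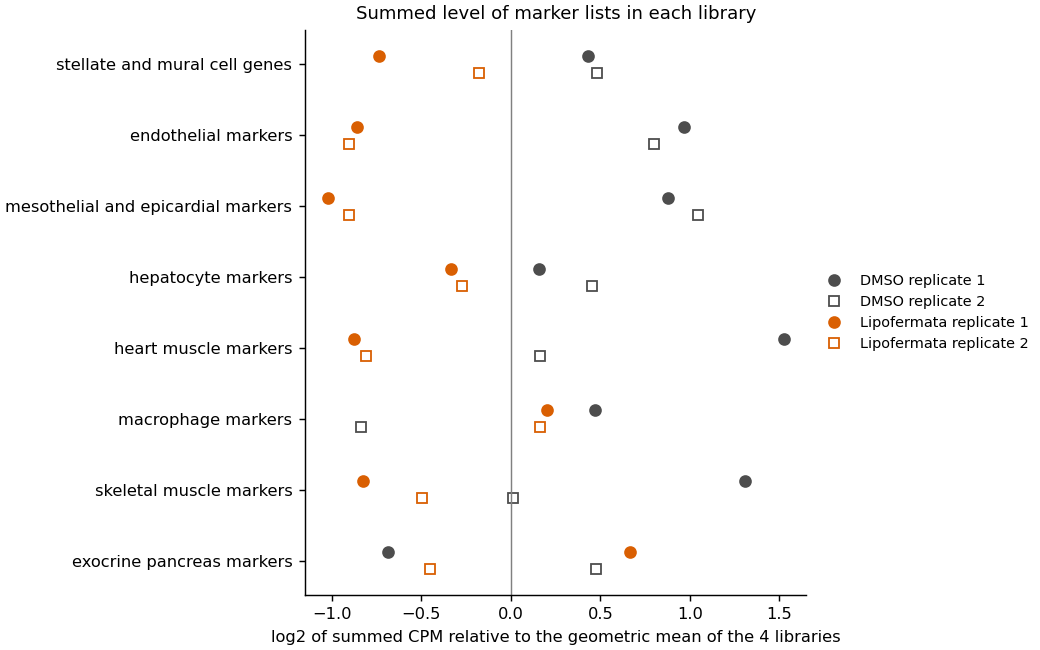
Summed CPM of marker lists in each library, as log2 of the ratio to the geometric mean of the 4 libraries (x axis). Endothelial and mesothelial sums separate DMSO from lipofermata with close replicates, heart and skeletal muscle are highest in DMSO replicate 1, and the macrophage (mostly lgmn) and exocrine pancreas sums overlap between treatments.

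Markers of other neighbours differed within the groups as well as between them. Of 14 tested macrophage markers, 5 were lower and 9 not called, with a median log2 fold change of -0.89. Lower were lcp1, an actin bundler of leukocytes (-1.37 ± 0.41), and mfap4 (-1.68 ± 0.52), both calls being lost without DMSO replicate 1 and that of mfap4 also without lipofermata replicate 2. Their sum was 347 and 140 CPM with DMSO and 288 and 280 CPM with lipofermata, mostly of the protease gene lgmn, and without lgmn 135 and 37.2 CPM against 52.2 and 55.4 CPM. Exocrine pancreas markers summed to 4463 and 9976 CPM against 11390 and 5261 CPM. The parts of these cells in the differences of the 8 genes were not tested. Skeletal muscle markers summed to 20.8 and 8.49 CPM with DMSO and to 4.75 and 5.97 CPM with lipofermata, highest in DMSO replicate 1 as the heart markers were.

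Each gene was last matched to the genes whose profile over the 4 libraries was most alike, by the root mean square difference of centred log2 CPM among 8378 candidates with a mean of at least 5 CPM. With 4 libraries such likeness is a description only. pdgfrb had the nearest match, pkd2, a polycystin channel (0.0062), followed by steap4 with ccng2, cyclin G2 (0.014), wt1b with aldh9a1a.1 (0.034), pdgfra with niban2a (0.044), hand2 with il13ra1 (0.057) and tcf21 with sparcl1 (0.070). acta2 and tagln had no close match outside the 8. Both were nearest to quo, at 0.377 and 0.415, and no candidate lay within 0.1 of either, against 102 candidates within 0.1 of steap4 and 48 of pdgfrb.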

How the data were processed

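Per the labels, the authors' processing used HISAT2, featureCounts and the GRCz11 build. For versions, annotation release and strand setting, nothing was given in the sources used here. The library kit marks strand. The deposited file holds raw counts, not normalized. Totals were 19368695 and 14997821 with DMSO and 17326660 and 16104812 with lipofermata. Of counts from 1 to 10, 77.7% to 78.2% were even in each library, so counting intervals were taken from halved counts. They cover counting error only. Between replicates, counts spread more widely than counting error (chi-square per degree of freedom 23.9 for DMSO, 13.9 for lipofermata).

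Genes were kept by filterByExpr (minimum count 10), leaving 14925 of 22295 with counts, and tested with edgeR 4.0.16 in R 4.3.3 (TMM, quasi-likelihood F test, treatment as the only term, Benjamini-Hochberg adjustment over all genes tested, threshold 0.1 as in the study's methods). TMM factors were 0.932 and 0.817 for DMSO and 1.16 and 1.13 for lipofermata. The SE is the size of the log2 fold change divided by the square root of F. Alternatives used DESeq2 1.42.0, limma 3.58.1, other scalings, filters and thresholds, a replicate block, each library left out, and halved counts, the last chosen after seeing the data. Figures used matplotlib 3.10.9.

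The 8 genes and the gene lists were chosen with earlier results of these data known. Lists exclude the 8. From each list the 4 called genes with the smallest p in each direction and the 2 most abundant genes not called could be named. Close relatives of the 8 could be named as well. cnn1a, nppa, nphs1, th, dbh, phox2ba, ngfra, gfap and lrata fall outside this rule and were singled out after their values were seen. Promoter, transcript and protein sequences were not used here. A withheld item is not reported here.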

Additional observations from a re-analysis of the deposited data

How the results depend on the processing

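The calls of wt1b, pdgfra and steap4 held in all 13 alternatives. These are not independent checks, since they share the same libraries and 1 is the main fit at a stricter threshold. Fits with a library left out rest on 1 library in a group. Scaling to total counts gave -0.52 for hand2, -1.01 for tcf21 and -0.45 for pdgfrb, and DESeq2's test -0.86, -1.37 and -0.80, none of them called, which left 3 genes lower under either. At an adjusted p under 0.05, tcf21 (-1.39) was not called. Leaving out 1 library gave 3 to 7 genes lower, with ranges of -1.22 to -0.40 for hand2, -1.97 to -0.97 for tcf21, -0.99 to -0.63 for pdgfrb, -2.23 to 0.058 for acta2 and -2.13 to 0.21 for tagln. With no filter acta2 was called at -0.66 (edgeR adjusted p 9.2e-04, against 0.361 with the filter), its SE being 0.17 against 0.51. The cause was not tested.

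Replicate numbers are shared between the groups, but no label says what they mark, and with 2 pairs the deviations of same-numbered libraries correlated at 0.033 across genes. With a replicate block 7 of the 8 genes were lower, acta2 being called at -1.02 (edgeR adjusted p 0.0217), and 2756 genes were higher and 2724 lower.

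Over all genes, 5092 were higher and 1182 lower with total counts, against 2479 and 2527. Leaving out 1 library gave 1128 to 3115 higher and 1284 to 2898 lower. Lower contractile genes numbered 3 with total counts, 4 with DESeq2's test, 5 at the stricter threshold and 2 to 7 with a library left out. Lower vitamin A genes numbered 5 with total counts and 4 to 9 with a library left out, and lower mesenchymal factors 5 to 10. Alternatives were followed for 59 of the other genes named. Of these, 51 were called, with no sign change. The call was kept by 34 in every alternative that could be run, and 17 lost it in at least 1. Of those not called, pdgfc (-0.017 to 1.16 with a library left out), cnn1a (-0.78 to 3.15), acta1a (-1.60 to 0.38) and fabp10a (0.15 with total counts) changed sign. tcf21 had the fewest counts of the 8 genes, 12 to 44 per library.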
